A study of Homo sapiens with 12 samples.

Results

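The 10 genes described here are the main cytosolic heat shock chaperones (HSP90AA1, HSP90AB1, HSPA8, HSPA4, HSPH1, DNAJA1 and DNAJB1), the mitochondrial chaperonin pair (HSPD1 and HSPE1) and the heat shock transcription factor HSF1. They were taken by gene symbol from tables of 25369 rows, and all 10 had a row in the table of each line. The 10 genes were chosen by name with the FPKM changes between days in both lines already known, and no threshold on them was set, so those changes are given as a description and no p-value is given for any of the 10. Transcripts were sequenced in 2 lines of diffuse large B cell lymphoma, an aggressive human B cell cancer, both expressing a doxycycline-inducible guide RNA against PRMT5, an arginine methyltransferase. TMD8 is an activated B cell-like line and OCI-Ly7 a germinal centre B cell-like line. Cells of each line received 20 ng/ml doxycycline for 6 days, for 3 days or for 0 days, with 2 libraries per day and line and 12 libraries in all. The day 0 cells carried the same guide and are the only reference, so the guide, doxycycline itself and time in culture cannot be told apart. Nothing in the labels says that the 2 libraries of a group came from separate cultures, so their spread may be technical. Levels are FPKM, that is fragments scaled to transcript length and to sequencing depth, and can be compared between genes.

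HSP90, HSP70 and their partners fold newly made and damaged proteins in the cytosol. J-domain proteins such as DNAJA1 and DNAJB1 bring clients to HSP70 and start its ATP hydrolysis, nucleotide exchange factors such as HSPA4 and HSPH1 release the bound ADP, and HSP90 takes over kinases, steroid receptors and other clients. HSPD1 (HSP60) and its lid HSPE1 (HSP10) fold proteins inside the mitochondrial matrix. Under heat or proteotoxic stress HSF1 binds gapped repeats of GAA and TTC in the promoters of many of these genes, and malignant B cells are known to carry high chaperone levels.

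The repeats themselves are shown first, since they are the sequence that HSF1 is known to bind. RefSeq promoter sequences on GRCh38.p14 were at hand for 9 of the 10 genes, in 15 windows, and the 250 bases before each start were searched on both strands. A repeat of 3 units, GAANNTTCNNGAA or TTCNNGAANNTTC, stood in 1 window each of 4 of the 9 genes, HSPA8, HSP90AA1, HSP90AB1 and HSPD1, against 0.557% of the 27305 genes with a window and 0.441% of the 35116 windows. Capitals mark the repeat, and the strand is that of the gene.
HSPA8, chr11:123062346-123062374, minus strand, 230 bases before the start: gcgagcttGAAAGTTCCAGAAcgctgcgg
HSPA8, chr11:123062171-123062199, minus strand, 55 bases before the start: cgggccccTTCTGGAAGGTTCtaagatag
HSP90AA1, chr14:102087112-102087140, minus strand, 88 bases before the start: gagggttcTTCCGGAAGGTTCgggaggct
HSP90AB1, chr6:44247770-44247798, plus strand, 165 bases before the start: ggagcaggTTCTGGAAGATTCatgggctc
HSP90AB1, chr6:44247823-44247851, plus strand, 112 bases before the start: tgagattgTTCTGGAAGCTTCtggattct
HSPD1, chr2:197500061-197500090, minus strand, 245 bases before the start: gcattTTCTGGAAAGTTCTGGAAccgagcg
The stretch of HSPD1 holds 2 overlapping copies of the repeat. It lies before the inner of 2 HSPD1 starts, inside the longer HSPD1 transcript, whose own start is 104 bases from that of HSPE1, which is read in the opposite direction. The shorter form, GAANNTTC or TTCNNGAA, which is part of the longer repeat, stood in 11.6% of all windows and also in those of DNAJA1 and DNAJB1. The windows of HSPA4, HSPE1 and HSPH1 held neither form. The HSPD1 stretch also lies before the start of HSPE1, but farther from it than the 250 bases searched. The stretches of HSPA8 and HSP90AA1 touch annotated exons of their own genes. That of HSPD1 touches exons of HSPD1 and HSPE1, and those of HSP90AB1 touch none. A match is a string of letters in a window and not a measured binding site.

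The targeted gene and the libraries as a whole set the scale. PRMT5 was at 64.8 and 60.5 FPKM before induction, 41.3 and 42.0 after 3 days, and 49.6 and 54.7 after 6 days in TMD8, and at 37.9 and 46.9, 29.3 and 32.1, and 21.0 and 19.2 FPKM on the same days in OCI-Ly7. At day 6 against day 0 it changed by -0.26 in TMD8 (log2, limma, adjusted p = 0.0262) and by -1.04 in OCI-Ly7 (adjusted p = 0.0345). In TMD8 most genes were lower after induction: the median log2 change of the genes tested was -0.27 at day 3 and -0.31 at day 6, against -0.12 and -0.13 in OCI-Ly7. RNA45S5, the row of the 45S ribosomal precursor, moved with this shift, with 17581 and 20280 FPKM at day 6 against 5222 and 7950 at day 0 in TMD8, and 16130 and 20185 against 11163 and 10374 in OCI-Ly7. It made up 1.13% and 1.70% of the FPKM sum at day 0 and 4.56% and 4.05% at day 6 in TMD8. In OCI-Ly7 these shares were 2.45% and 2.29% at day 0 and 3.69% and 4.94% at day 6. The part of this row in the chaperone values was not tested, and their summed share without it is given below. Changes at day 6 are therefore also given after median-ratio scaling, in which a library is divided by how far its typical gene lies from that gene's geometric mean in the same line. With that scaling the change of PRMT5 in TMD8 was 0.10 (adjusted p = 0.201), and in OCI-Ly7 it was -0.89 (adjusted p = 0.0284). The depth was read only in relative terms, from the small values of each table, and was 0.54 to 0.74 of the first day 0 library in the induced TMD8 libraries and 0.77 to 0.91 in those of OCI-Ly7. Summed T and NK cell markers did not exceed 0.77 FPKM in any library, with CD3E, CD3D and CD2 at 0. Of the 6 germinal centre markers, MME, BCL6 and MYBL1 had higher medians in OCI-Ly7 (9.08, 47.3 and 6.61 FPKM) than in TMD8 (0, 9.02 and 1.04). LMO2, SERPINA9 and S1PR2 had lower ones in OCI-Ly7 (0.0311, 0 and 1.96 FPKM) than in TMD8 (20.6, 8.76 and 3.45), against the labels. In bulk RNA, fewer cells and less RNA per cell cannot be told apart.

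Heat shock chaperone transcripts were abundant in both lines, and for 5 of the 10 genes both day 6 libraries lay above day 0 in TMD8 and below it in OCI-Ly7 (the plot of each library by day). Together the 10 genes held 0.827% and 0.911% of all FPKM at day 6 in TMD8, against 0.845% and 0.727% at day 0. The OCI-Ly7 share was 0.336% and 0.371% at day 6, against 0.554% and 0.551% at day 0. In that line the summed level was thus lower in both day 6 libraries, while in TMD8 the days overlapped. The TMD8 overlap depends on the RNA45S5 row. With that row left out of the sum, the TMD8 share was 0.8666% and 0.9497% at day 6, against 0.8545% and 0.7399% at day 0. The OCI-Ly7 share without it was 0.3483% and 0.3902% at day 6, against 0.5683% and 0.5643% at day 0. The tables of the lines were normalized separately, so levels set side by side across them are approximate.

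**Figure D1:**
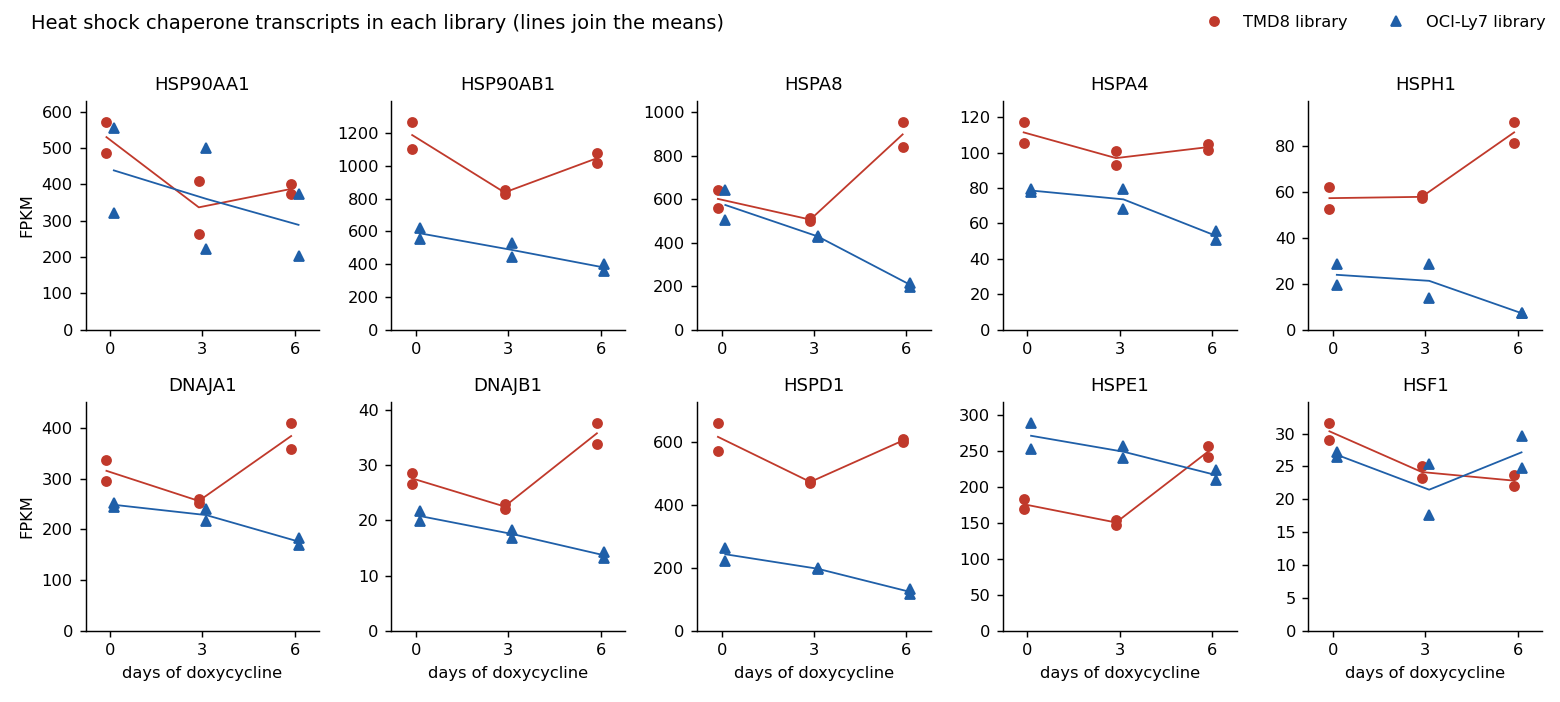
FPKM (vertical axis, from 0) of each of the 10 genes by days of doxycycline, with 1 point per library (circles for TMD8, triangles for OCI-Ly7) and lines through the means of 2 libraries. In TMD8, HSPA8 reaches 838 and 956 FPKM at day 6, above both day 0 libraries, while in OCI-Ly7 it is at 216 and 197, below both.

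The order of the levels differed between the lines. In TMD8 at day 0, HSP90AB1 led with 1188 ± 116 FPKM (SD, n = 2). HSPD1 followed with 617 ± 63.6, HSPA8 with 601 ± 56.1 and HSP90AA1 with 530 ± 60.4, and these 3 neighbours overlapped in their libraries. DNAJA1 (316 ± 29), HSPE1 (176 ± 9.81), HSPA4 (112 ± 8.62), HSPH1 (57.2 ± 6.88), HSF1 (30.3 ± 1.85) and DNAJB1 (27.6 ± 1.41) came next without overlap. At day 6 in TMD8, HSPA8 stood alone in second place with 897 ± 83.1 FPKM, and DNAJB1 (35.7 ± 2.71) lay above HSF1 (22.8 ± 1.14). In OCI-Ly7 at day 0, HSP90AB1 (588 ± 47.7), HSPA8 (573 ± 96.9) and HSP90AA1 (438 ± 164) overlapped at the top, and HSPD1 (243 ± 29.7) overlapped with HSPE1 (271 ± 25.7). At day 6 in OCI-Ly7, HSP90AB1 (379 ± 33.5) had the highest mean, and HSP90AA1 (288 ± 121), HSPE1 (217 ± 9.27) and HSPA8 (207 ± 14.1) followed, each overlapping with the one before it. HSPH1 (7.18 ± 0.0912) was the lowest of the 10.

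HSPA8, the constitutive cytosolic HSP70 (HSC70), was higher at day 6 than at day 0 in TMD8 and lower in OCI-Ly7. In TMD8 it was at 640 and 561 FPKM before induction, 513 and 498 after 3 days, and 838 and 956 after 6 days. The OCI-Ly7 libraries had 504 and 641 FPKM before induction, 429 and 427 after 3 days, and 216 and 197 after 6 days. Both day 6 libraries thus lay above day 0 in TMD8 and below it in OCI-Ly7, and in each line the day 3 values were below those of day 0 as given. After scaling the day 3 change was 0.06 in TMD8, with overlapping libraries, and -0.28 in OCI-Ly7. The log2 change at day 6 against day 0 was 0.58 (SE 0.092) in TMD8 and -1.46 (SE 0.13) in OCI-Ly7. After scaling it was 0.94 (SE 0.071) and -1.31 (SE 0.13) in the same order of lines. Ranked among all genes tested, 97.1% had a lower change than HSPA8 in TMD8, and 0.626% had a lower one in OCI-Ly7.

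HSPH1 (HSP110) and HSPA4 (APG-2), large HSP70 relatives that act as nucleotide exchange factors, differed in size of change. HSPH1 was at 62.0 and 52.3 FPKM before induction, 58.4 and 57.1 after 3 days, and 81.1 and 90.5 after 6 days in TMD8. For OCI-Ly7 the values were 28.5 and 19.2 FPKM before induction, 28.7 and 13.8 after 3 days, and 7.12 and 7.25 after 6 days. The day 6 libraries stood apart in both lines, higher in TMD8 and 3.32-fold lower in OCI-Ly7, where the duplicates of days 0 and 3 were far apart. The log2 change was 0.58 (SE 0.099) in TMD8 and -1.58 (SE 0.35) in OCI-Ly7, and after scaling 0.94 (SE 0.069) and -1.435 (SE 0.32). HSPA4 was flatter, at 101 and 105 FPKM at day 6 against 118 and 105 at day 0 in TMD8. Its second libraries of the 2 days differed by less than 1 FPKM. In OCI-Ly7 HSPA4 was at 55.5 and 50.7 FPKM at day 6, against 77.9 and 79.4 at day 0, without overlap. Its log2 change was -0.11 (SE 0.078) in TMD8, where scaling turned it to 0.25 (SE 0.061), and -0.56 (SE 0.11) in OCI-Ly7, where it was -0.41 (SE 0.063) after scaling.

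The J-domain proteins DNAJA1 and DNAJB1, which differ in how they bind clients but both stimulate the HSP70 ATPase, moved alongside each other. DNAJA1 in TMD8 was at 336 and 295 FPKM before induction, 252 and 260 after 3 days, and 358 and 410 after 6 days. OCI-Ly7 cells had 245 and 252 FPKM before induction, 241 and 216 after 3 days, and 183 and 169 after 6 days. DNAJA1 thus ended highest in TMD8 and lowest in OCI-Ly7, with log2 changes of 0.28 (SE 0.093) and -0.50 (SE 0.098). DNAJB1, the heat-inducible HSP40, was at 28.6 and 26.6 FPKM before induction, 22.0 and 22.9 after 3 days, and 33.8 and 37.6 after 6 days in TMD8. The matching OCI-Ly7 values were 19.9 and 21.6, then 18.2 and 16.8, then 14.2 and 13.1 FPKM on those days. Its log2 change was 0.36 (SE 0.080) in TMD8 and -0.57 (SE 0.10) in OCI-Ly7. Scaling made the changes 0.65 and -0.34 for DNAJA1, and 0.71 and -0.43 for DNAJB1, in the same 2 lines. The FPKM ratio of DNAJB1 to DNAJA1 stayed between 0.0756 and 0.0945 in all 12 libraries. Within that range it was 0.0945 and 0.0917 at day 6 against 0.0850 and 0.0900 at day 0 in TMD8, and 0.0778 and 0.0773 against 0.0812 and 0.0859 in OCI-Ly7, without overlap in either line.

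The cytosolic HSP90 pair did not share this pattern in TMD8. HSP90AB1, the constitutive form, was at 1270 and 1105 FPKM before induction, 825 and 850 after 3 days, and 1014 and 1078 after 6 days in TMD8. In OCI-Ly7 cells it read 555 and 622 FPKM before induction, 528 and 445 after 3 days, and 403 and 355 after 6 days. It was therefore lower at day 6 in both lines, with log2 changes of -0.18 (SE 0.080) in TMD8 and -0.63 (SE 0.13) in OCI-Ly7. After scaling the change was 0.18 (SE 0.076) in TMD8, so its direction there depends on the scale, and -0.48 (SE 0.086) in OCI-Ly7. HSP90AA1, the stress-inducible form, was at 573 and 487 FPKM before induction, 409 and 265 after 3 days, and 374 and 401 after 6 days in TMD8. HSP90AA1 in OCI-Ly7 had 554 and 322 FPKM before induction, 221 and 499 after 3 days, and 203 and 374 after 6 days. The OCI-Ly7 duplicates differed more within a day than the days did, and the change of -0.62 there has an SE of 0.50 (-0.46 with an SE of 0.56 after scaling). In TMD8 both day 6 libraries were below day 0, with a log2 change of -0.45 (SE 0.20) as given and -0.08 (SE 0.19) after scaling.

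The mitochondrial pair split in a similar way in both lines. HSPD1 was at 662 and 572 FPKM before induction, 476 and 470 after 3 days, and 599 and 610 after 6 days in TMD8. OCI-Ly7 gave 222 and 264 FPKM before induction, 199 and 195 after 3 days, and 132 and 116 after 6 days. The HSPD1 libraries of day 6 lay within the day 0 range in TMD8, and in OCI-Ly7 their mean was 1.97-fold lower than at day 0. The log2 change was -0.02 (SE 0.078) in TMD8, which scaling turned to 0.34 (SE 0.074), and -0.97 (SE 0.12) in OCI-Ly7, or -0.82 (SE 0.11) after scaling. HSPE1 was at 183 and 169 FPKM before induction, 153 and 148 after 3 days, and 258 and 241 after 6 days in TMD8. The line OCI-Ly7 had 289 and 253 FPKM before induction, 257 and 241 after 3 days, and 223 and 210 after 6 days. HSPE1 was thus higher at day 6 in TMD8, with a log2 change of 0.50 (SE 0.067), and lower in OCI-Ly7, at -0.32 (SE 0.10). Its scaled changes were 0.86 (SE 0.080) and -0.17 (SE 0.086).

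The day 6 pattern of HSPA8 was not shared by HSF1, known as a stress-activated regulator of many of these genes. It was at 31.6 and 29.0 FPKM before induction, 23.3 and 25.0 after 3 days, and 22.0 and 23.6 after 6 days in TMD8. In OCI-Ly7 the gene had 27.2 and 26.4 FPKM before induction, 25.4 and 17.6 after 3 days, and 29.6 and 24.7 after 6 days. In TMD8 both later days lay below day 0, with a log2 change at day 6 of -0.39 (SE 0.079), and the change after scaling was -0.04 (SE 0.063). In OCI-Ly7 the day 6 libraries lay on either side of day 0, at 0.01 (SE 0.19). After scaling both lay above it, with 30.3 and 26.2 at day 6 against 25.5 and 24.6 scaled FPKM at day 0, a log2 change of 0.16 (SE 0.14). The transcript says nothing of HSF1 protein or its activation.

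Counted over the 10 genes in the fit across all genes (limma on log2(FPKM + 1), Benjamini-Hochberg adjusted p under 0.05), 5 were higher at day 6 than at day 0 in TMD8 (HSPA8, HSPE1, HSPH1, DNAJA1 and DNAJB1), where 3.89% of all genes tested were higher. HSF1 alone was lower, where 51.7% of genes were. After scaling 7 were higher, HSPA4 and HSPD1 in addition to those 5, against 15.4% of genes. In OCI-Ly7 7 genes were lower at day 6, all but HSP90AA1, HSPE1 and HSF1, against 9.39% of genes, and after scaling the same 7 were lower, against 8.05%. These contrasts were known when the genes were picked, so nothing is read from the shares. The median log2 change of the 10 was 0.13 in TMD8 and -0.59 in OCI-Ly7, beside -0.31 and -0.13 for all genes tested. The OCI-Ly7 count rests on every library compared: it was 1 without the first day 0 library, and 0 without the second day 0 library or either day 6 library. It was 1 when genes of low FPKM were kept in the test. In TMD8 4 to 6 of the genes passed whichever library was left out. DNAJA1 is the least firm there: it passed in 5 of the 14 alternatives, against 13 for DNAJB1 and 14 each for HSPA8, HSPE1 and HSPH1.

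**Figure D2:**
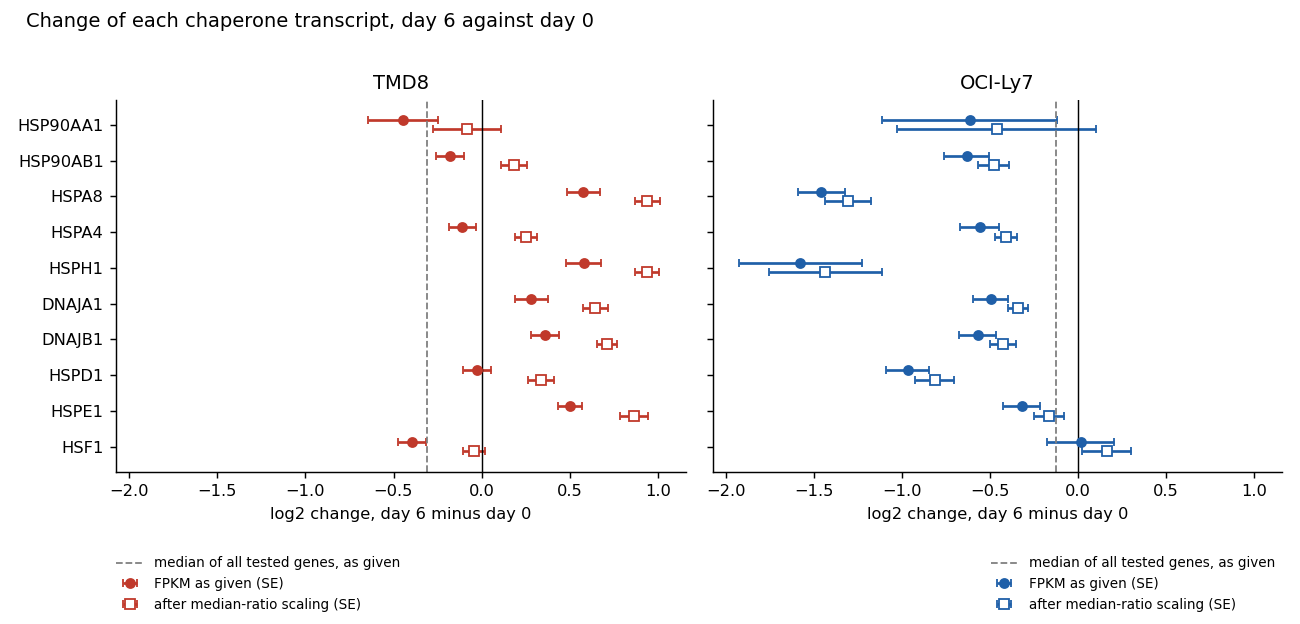
Log2 change at day 6 minus day 0 for each of the 10 genes (horizontal axis, bars are SE of the limma fit), with filled circles for FPKM as given and open squares after median-ratio scaling, TMD8 left and OCI-Ly7 right. The dashed line is the median of all genes tested as given, at -0.31 in TMD8 and -0.13 in OCI-Ly7, and HSPA8 and HSPH1 lie far to its right in TMD8 and far to its left in OCI-Ly7.

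The course through day 3 was not a straight line in TMD8. At day 3 against day 0, 7 of the 10 were lower there, against 41.5% of all genes lower, and after scaling 0 passed, against 0.22% in either direction, with 1 higher and 1 lower at an unadjusted p under 0.05. The 7 went to 0 when either library of day 0 or of day 3 was left out, and to 3 with no filter on low values. At day 6 against day 3 in TMD8, HSPA8, HSPD1, HSPE1, HSPH1, DNAJA1 and DNAJB1 were higher, against 3.38% of all genes. That count of 6 became 0 without either day 3 library, 3 without the second day 6 library, and 3 with no filter. In OCI-Ly7 0 of the 10 passed at day 3 against day 0 in limma, where 0.145% of genes did, and 1 was lower at an unadjusted p under 0.05. At day 6 against day 3 in OCI-Ly7 0 passed as given, where 0.218% of genes did, with 7 lower at an unadjusted p under 0.05. After scaling 4 passed there, HSPA8, HSPA4, HSPD1 and DNAJA1, all lower, against 4.52% of genes. These comparisons share libraries with each other, so their counts are set side by side only.

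Groups that did not overlap gave a similar picture without a test. At day 6 in TMD8 5 of the 10 had both libraries above both of day 0, against 7.88% of all genes tested, and 4 had both below, against 73.4%. In OCI-Ly7 8 of the 10 had both day 6 libraries below both of day 0, against 48.6% of genes, and 0 had both above, against 20.7%. HSPA8, HSPE1, HSPH1, DNAJA1 and DNAJB1 were above day 0 in TMD8 and below it in OCI-Ly7, an order that 3.47% of the 9688 genes tested in both lines showed. After scaling 8 genes had that order, HSPA4, HSP90AB1 and HSPD1 in addition, against 15.5% of the genes. Whether the lines differ was not tested for these genes (the plot of one line against the other).

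**Figure D3:**
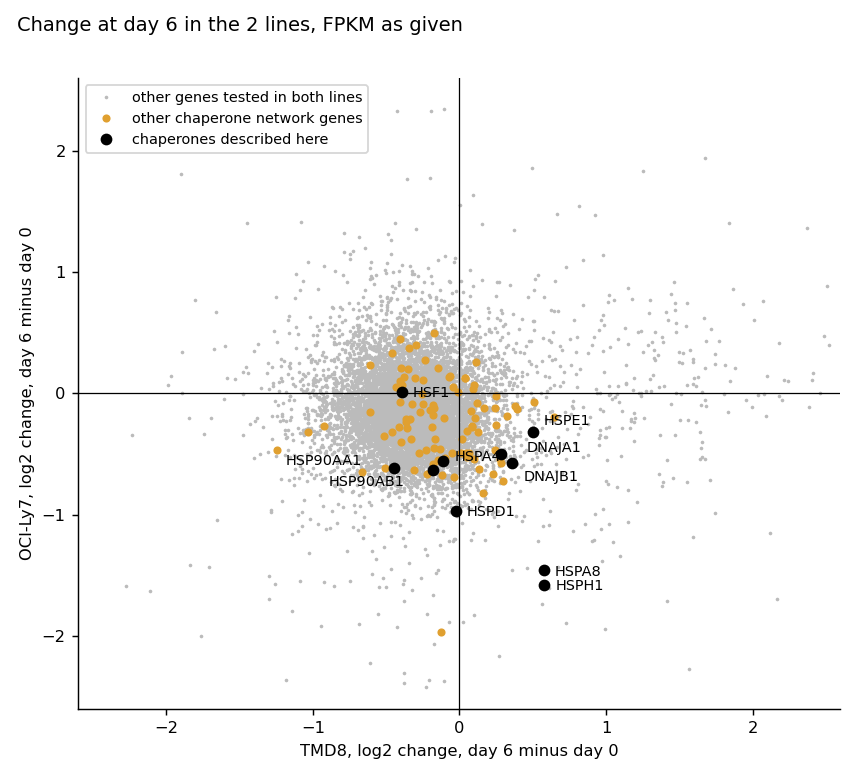
Log2 change at day 6 minus day 0, on FPKM as given, in TMD8 (horizontal axis) and OCI-Ly7 (vertical axis) for the 9688 genes tested in both lines. The 10 genes described here are named, other chaperone network genes are in orange and all others in grey. Outside the plotted range of 2.6 lie 24 genes. HSPA8 and HSPH1 lie at the lower right, at 0.58 in TMD8 and at -1.46 and -1.58 in OCI-Ly7.

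Ratios between chaperones within a library do not depend on how libraries are scaled (the plot of ratios by day). The HSPD1 to HSPE1 ratio of FPKM was 3.62 and 3.38 before induction, 3.10 and 3.18 after 3 days, and 2.33 and 2.53 after 6 days in TMD8. In OCI-Ly7 it was 0.768 and 1.05 before induction, 0.774 and 0.811 after 3 days, and 0.591 and 0.550 after 6 days. This ratio was lower at day 6 than at day 0 in both lines without overlap, although the level of HSPE1 went opposite ways. The HSPA8 to HSP90AB1 ratio was 0.504 and 0.508 before induction, 0.622 and 0.587 after 3 days, and 0.826 and 0.887 after 6 days in TMD8. In OCI-Ly7 it was 0.909 and 1.03, then 0.814 and 0.960, then 0.537 and 0.553 on those days. HSPA8 thus gained on HSP90AB1 in TMD8 and lost to it in OCI-Ly7. HSPH1 to HSPA8 was 0.0969 and 0.0933 before induction, 0.114 and 0.115 after 3 days, and 0.0968 and 0.0947 after 6 days in TMD8, higher on day 3 only. DNAJA1 to HSPA8 was 0.427 and 0.429 at day 6 against 0.525 and 0.526 at day 0 in TMD8, and 0.845 and 0.860 against 0.486 and 0.393 in OCI-Ly7. HSPA8 also moved against HSPA9, the mitochondrial HSP70, with ratios of 4.15 and 4.70 at day 6 against 2.56 and 2.50 at day 0 in TMD8. In OCI-Ly7 the HSPA8 to HSPA9 ratio was 2.29 and 2.21 at day 6, against 3.51 and 4.31 at day 0. The HSP90AA1 to HSP90AB1 ratio ranged from 0.419 to 1.12 within day 3 of OCI-Ly7 alone.

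**Figure D4:**
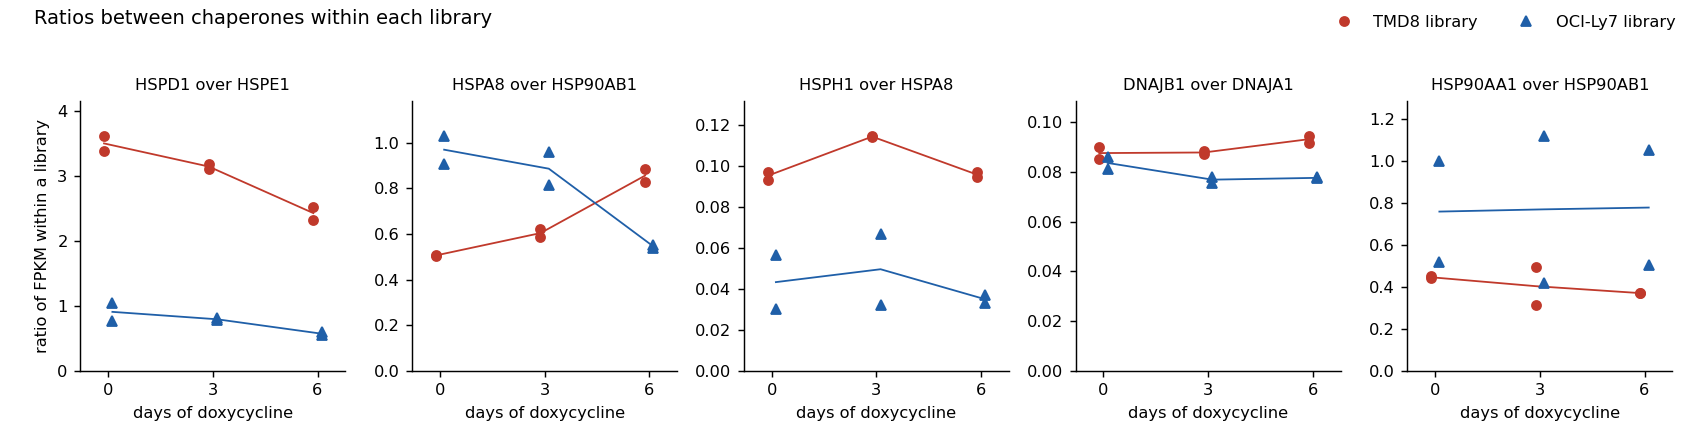
Ratio of FPKM between 2 chaperones within a library (vertical axes, from 0) by days of doxycycline, with 1 point per library (circles for TMD8, triangles for OCI-Ly7) and lines through the means. HSPD1 over HSPE1 is lower at day 6 in both lines, HSPA8 over HSP90AB1 is 0.826 and 0.887 at day 6 in TMD8 and 0.537 and 0.553 in OCI-Ly7, and DNAJB1 over DNAJA1 stays between 0.0756 and 0.0945.

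Across the 12 libraries, scaled and centred on each line, the chaperones other than HSP90AA1 varied together. Their correlations ran from 0.569 (HSPD1 with HSPE1) to 0.987 (DNAJA1 with DNAJB1). HSPD1 had 0.969 with HSPA8 and 0.94 with HSP90AB1, and HSPE1 had 0.913 with DNAJA1. HSP90AA1 had 0.121 to 0.271 with the other 8 chaperones, and HSF1 was negative with all 9, from -0.593 to -0.216. These values are descriptions over 12 libraries that share line, day and scaling. Among the 6070 genes that averaged 5 FPKM or more in each line, those most like HSPA8 were FARSB (r = 0.986), CCT2 (0.983), PWP1 (0.981), EIF2S1 (0.979) and RFC3 (0.979). HSPD1 was nearest to PWP1 (0.98), HNRNPF (0.978), XRCC5 (0.977), DDX1 (0.975) and CIAPIN1 (0.974). Genes near HSF1 included GIPC1 (0.969), AXIN1 (0.964), PAK4 (0.961) and LONP1 (0.954). HSP90AA1 had looser neighbours, among them C11orf73 (0.834), DYNC1I2 (0.831), NSFL1C (0.824) and FOXN2 (0.754).

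The wider chaperone network was read from 118 further genes in 9 lists, 97 of which were tested in TMD8 and 98 in OCI-Ly7 (the plot by list). Some lists share genes, so counts by list are not separate, while each gene counts once in the totals. CHORDC1, PTGES3 and FKBP4, for example, are listed as HSP90 co-chaperones and as heat-inducible HSF1 targets. At day 6 against day 0 in TMD8 9 rose and 28 fell (limma, adjusted p under 0.05), beside 3.89% and 51.7% of all genes, and after scaling 38 rose and 3 fell, beside 15.4% and 13.5%. In OCI-Ly7 0 rose and 18 fell, beside 1.98% and 9.39% of genes, with 4 higher at an unadjusted p under 0.05, and after scaling 3 rose and 18 fell, beside 6.71% and 8.05% of genes. Their median log2 change was -0.15 in TMD8 and -0.20 in OCI-Ly7, beside -0.31 and -0.13 for all genes. In TMD8 13 passed without the first day 0 library. In OCI-Ly7 0 passed without either day 0 library or the second day 6 library, 1 without the first day 6 library, and 0 when genes of low FPKM were kept. At day 3 against day 0, 48 of the 97 fell in TMD8, beside 41.5% of all genes. That count did not hold when any library of those days was left out. After scaling 0 passed, beside 0.22% of all genes in either direction, with 4 higher and 4 lower at an unadjusted p under 0.05.

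Of 16 genes tested that are classed as heat-inducible HSF1 targets, 7 rose and 1 fell in TMD8, beside 3.89% and 51.7% of all genes, and 12 rose and 1 fell after scaling, beside 15.4% and 13.5%. In OCI-Ly7 0 rose and 6 fell, beside 1.98% and 9.39% of all genes, with 1 higher at an unadjusted p under 0.05. After scaling 1 rose and 6 fell there, beside 6.71% and 8.05% of all genes. The difference between the lines was not tested. Their median log2 change was 0.13 in TMD8 and -0.23 in OCI-Ly7, beside -0.31 and -0.13 for all genes. CHORDC1, an HSP90 partner, averaged 20.8 ± 2.35 FPKM at day 6 against 12.8 ± 0.607 at day 0 in TMD8 (SD, n = 2 each; log2 change 0.65, limma adjusted p = 0.00407). DEDD2, a death effector domain protein, was at 15.7 ± 0.304 against 10.7 ± 0.953 FPKM in TMD8 (log2 change 0.51, adjusted p = 0.0056). The inducible HSP70 genes HSPA1A and HSPA1B stayed low: HSPA1A was at 3.55 ± 0.378 FPKM at day 6 against 2.62 ± 0.212 at day 0 in TMD8 (adjusted p = 0.0386), and HSPA1B at 7.20 ± 0.889 against 5.24 ± 0.701 (adjusted p = 0.036). These near-identical copies share reads, so their split is uncertain. BAG3 and HSPB1, both heat-inducible in many cells, did not pass as given in TMD8 (adjusted p = 0.388 and 0.715) or OCI-Ly7 (adjusted p = 0.867 and 0.639). After scaling both rose in TMD8, by 0.41 and 0.40 (adjusted p = 0.0218 and 0.0256).

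Among 24 HSP90 co-chaperones 3 rose and 6 fell in TMD8, beside 3.89% and 51.7% of all genes. After scaling 10 rose and 0 fell, beside 15.4% and 13.5%, with 1 lower at an unadjusted p under 0.05. In OCI-Ly7 0 rose, also at an unadjusted p under 0.05, and 8 fell, beside 9.39% of all genes, and after scaling 9 fell, beside 8.05%. AHSA1, which stimulates the HSP90 ATPase, was at 174 ± 0.587 FPKM at day 6 against 143 ± 9.37 at day 0 in TMD8 (log2 change 0.28, limma adjusted p = 0.0154), and at 103 ± 10.9 against 154 ± 1.48 in OCI-Ly7 (log2 change -0.57, adjusted p = 0.0446). FKBP4, a co-chaperone of steroid receptor complexes, was at 138 ± 3.08 against 118 ± 9.30 FPKM in TMD8 (adjusted p = 0.0351) and at 37.6 ± 2.64 against 59.95 ± 0.263 in OCI-Ly7 (adjusted p = 0.0345). PTGES3 (p23) fell in OCI-Ly7 by 0.82 (adjusted p = 0.0345) and was 0.16 higher in TMD8 (adjusted p = 0.0668). STIP1 (HOP), which links HSP70 to HSP90, fell in OCI-Ly7 by 0.49 (adjusted p = 0.0377) and changed by 0.01 in TMD8 (adjusted p = 0.906). FKBP8 fell in TMD8 by 0.61 (adjusted p = 0.00232), a change of -0.25 after scaling (adjusted p = 0.0698).

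The remaining lists are set beside the same shares, 3.89% higher and 51.7% lower in TMD8 and 1.98% and 9.39% in OCI-Ly7. Counts after scaling in TMD8 are set beside 15.4% higher and 13.5% lower. Of 10 HSP70 exchange factors and co-chaperones 1 rose (BAG1, log2 change 0.30, limma adjusted p = 0.0386) and 1 fell in TMD8, and 2 fell in OCI-Ly7, BAG2 and the mitochondrial exchange factor GRPEL1. Of 5 further HSP70 genes tested 2 rose and 1 fell (HSPA13) in TMD8, and 2 fell in OCI-Ly7, HSPA13 and HSPA14. Of 30 other J-domain genes tested in TMD8 0 rose and 9 fell, led by the clathrin uncoating factor DNAJC6 (log2 change -1.03, adjusted p = 0.00183), with 1 higher at an unadjusted p under 0.05. After scaling 12 of the 30 rose and 1 fell, and their median log2 change as given was -0.23, beside -0.31 for all genes. Of 31 in OCI-Ly7 2 fell, DNAJC8 and the mitochondrial DNAJA3. Of 6 prefoldin subunits PFDN5 rose in TMD8 (adjusted p = 0.015) and VBP1 fell in OCI-Ly7 (adjusted p = 0.0345), and after scaling 5 rose in TMD8. Both small heat shock proteins tested, HSPB1 among them, rose in TMD8 after scaling and 0 passed as given, also at an unadjusted p under 0.05. The 3 HSF family genes gave 0 calls as given in limma, with 0 at an unadjusted p under 0.05 in TMD8 and 1 higher and 1 lower in OCI-Ly7. HSF2 was at 5.22 ± 0.322 FPKM at day 6 against 6.13 ± 0.0343 at day 0 in TMD8 (adjusted p = 0.0824).

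Of 12 other mitochondrial chaperones and proteases 10 fell and 0 rose in TMD8, also at an unadjusted p under 0.05, beside 51.7% and 3.89% of all genes. After scaling 1 fell and 0 rose, beside 13.5% and 15.4%. CLPB, a mitochondrial disaggregase, was at 8.11 ± 0.661 FPKM at day 6 against 16.3 ± 0.0101 at day 0 (log2 change -0.93, limma adjusted p = 0.00177; -0.59 after scaling, adjusted p = 0.0075). TRAP1, the mitochondrial HSP90, fell in TMD8 by 0.41 (adjusted p = 0.00437), which scaling reduced to -0.05 (adjusted p = 0.597). In OCI-Ly7 HSPA9 alone of the 12 passed as lower, beside 9.39% of all genes. It was at 91.8 ± 3.75 FPKM at day 6 against 146 ± 3.60 at day 0 (log2 change -0.67, limma adjusted p = 0.0345). At an unadjusted p under 0.05, 3 of the 12 were lower and 1 was higher there. Both day 6 libraries lay below day 0 for 7 of the 12, beside 48.6% of all genes, and above it for 1, beside 20.7%.

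**Figure D5:**
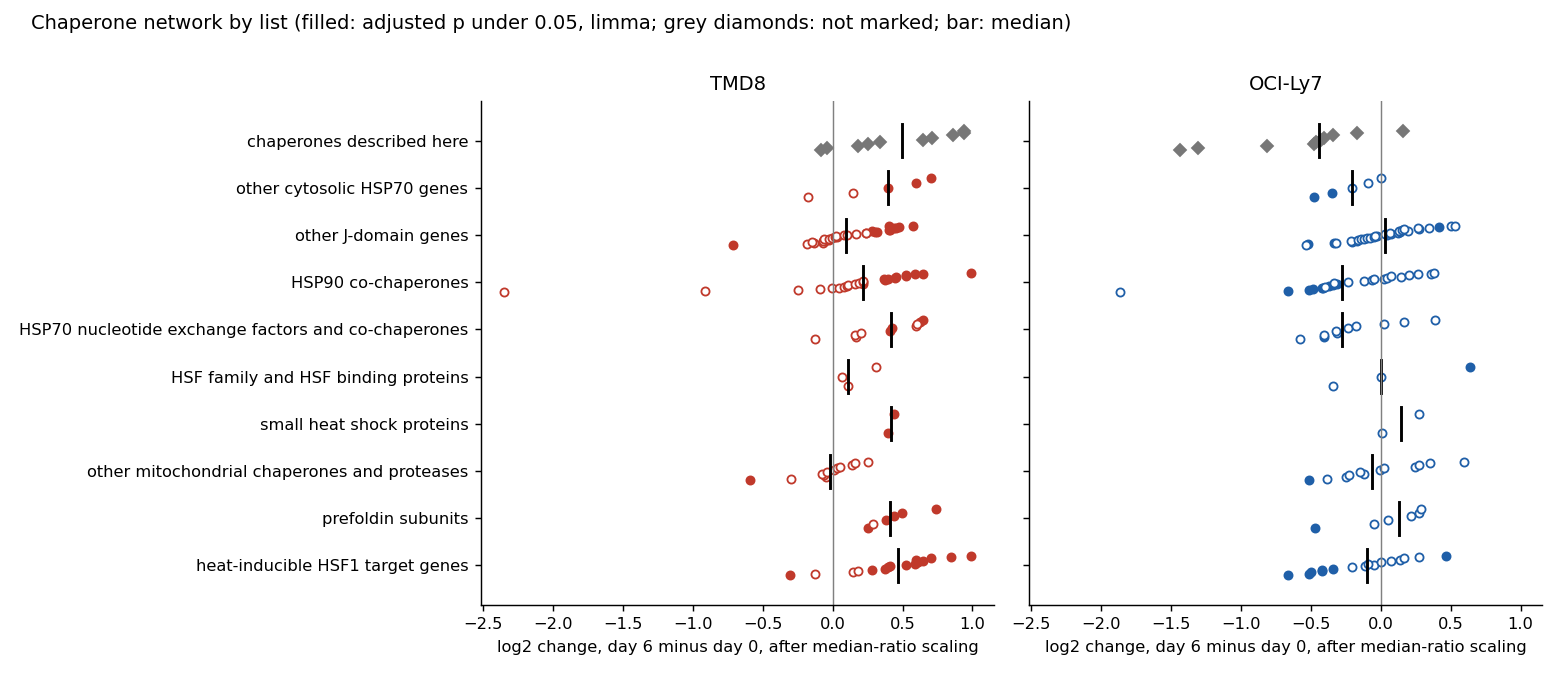
Log2 change at day 6 minus day 0 after median-ratio scaling (horizontal axis) for each gene of the 9 chaperone network lists and the 10 genes described here, TMD8 left and OCI-Ly7 right. Filled circles passed limma at an adjusted p under 0.05 and open circles did not. Grey diamonds are the 10 genes, HSF1 included, and vertical bars are medians. The heat-inducible HSF1 target genes show 12 rising and 1 falling of 16 in TMD8, beside 15.4% and 13.5% of all genes. In OCI-Ly7 they show 1 rising and 6 falling, beside 6.71% and 8.05% of all genes.

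Shared sequence limits how exactly some of these values can be read. In GENCODE v29, HSPE1 has 26 annotated pseudogenes, HSPD1 and HSPA8 have 17 each, DNAJA1 has 6 and the HSP90 genes have 4 and 5, and how the authors assigned reads shared with them is not given in the sources used here. HSPD1 overlaps HSPE1 and MOB4 on the opposite strand, HSP90AA1 overlaps WDR20, DNAJB1 overlaps TECR and HSF1 overlaps DGAT1, and whether strand was used in counting is likewise not given. The read-through gene HSPE1-MOB4, which contains HSPE1, was listed at 4.55 FPKM in the second day 0 library of TMD8 and at 0 in the other 5 TMD8 libraries.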

How the data were processed

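RNA sequencing gave 12 libraries, prepared per the labels' protocols with a TruSeq kit from Illumina. HISAT and StringTie were used with the build hg19, per the submitters' processing notes, and their versions are not given in the sources used here. FPKM were computed by the authors for each library and deposited as 1 table a line. Absolute depth is unknown, so no interval from counts was made. Titles, characteristics and design text give days 0, 3 and 6 and were followed, although the treatment protocol names other days.

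Days were compared within a line by limma 3.58.1 (R 4.3.3) on log2(FPKM + 1), a scale that understates changes of low genes, for genes averaging at least 1 FPKM (10456 in TMD8 and 11016 in OCI-Ly7). The spread of a line was shared by the 3 days, with 3 residual degrees of freedom and a trend on the mean. Benjamini-Hochberg adjustment ran over all genes tested. The script was tested on simulated data. The 10 genes and the lists were chosen with earlier results of these data known. Network genes were named, for each list, line and direction, as the 2 with the largest change at day 6 among those past 0.05 without overlap. HSF2, HSPA9, TRAP1, STIP1, HSPA1A, HSPA1B, HSPB1 and BAG3 were always named, and not all named genes are printed. Promoters are from RefSeq (GRCh38.p14), another build than that of the tables, matched by symbol. Alternatives were other scaling, pseudocounts and filters, no trend, 2 days alone, a replicate block and leaving out each library.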

Additional observations from a re-analysis of the deposited data

Results flagged for a closer look

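Several genes had both day 6 libraries above both libraries of the earlier day in TMD8 and below them in OCI-Ly7, before and after scaling. Against day 0, 3.47% of the 9688 genes tested in both lines had that order as given, and 15.5% had it after scaling. The share of all genes with that order against day 3 was not computed, so nothing is read from it. The difference between the lines was not tested for any of the genes named. Against day 0 the log2 changes in TMD8 and OCI-Ly7 were 0.58 and -1.46 for HSPA8, 0.58 and -1.58 for HSPH1, 0.50 and -0.32 for HSPE1, 0.28 and -0.50 for DNAJA1, and 0.36 and -0.57 for DNAJB1. Against day 3 they were 0.82 and -1.05 for HSPA8, 0.56 and -1.36 for HSPH1, 0.72 and -0.20 for HSPE1, 0.58 and -0.37 for DNAJA1, 0.64 and -0.34 for DNAJB1, 0.35 and -0.67 for HSPD1, 0.32 and -0.36 for HSP90AB1, and 0.09 and -0.46 for HSPA4. Both comparisons use the same day 6 libraries. Of the named network genes, AHSA1 had 0.28 and -0.57, PTGES3 0.16 and -0.82, FKBP4 0.23 and -0.66, BAG1 0.30 and -0.72, BAG2 0.28 and -0.54, and VBP1 0.14 and -0.62 against day 0.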

How the results depend on the processing

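In TMD8 at day 6 against day 0 the count of the 10 chaperones called stayed within 1.5 times of 6 under the alternatives run, as did the network count of 37 except for the range of 13 to 38 with 1 library left out. In TMD8 at day 3 against day 0 the chaperone count of 7 became 0 with median-ratio scaling, an equal sum of FPKM or a replicate block, 3 without the filter, and 0 to 7 with 1 library left out, and the network count of 48 became 0 with either scaling or the block, 31 without the filter, and 0 to 56. In TMD8 at day 6 against day 3 the chaperone count of 6 became 3 without the filter and 2 with the replicate block. The network count of 17 was 16 higher and 1 lower, beside 3.38% of all genes higher. It became 27 with median-ratio scaling, for which no such share is given. Without the filter it was 5, without the trend 10, with the 2 days alone 4 and with the block 0. Both counts were lower with any 1 library left out. In OCI-Ly7 at day 6 against day 0 the chaperone count of 7 became 1 without the filter and 0 to 7 with 1 library left out, and the network count of 18 became 0 without the filter, 9 with the replicate block and 0 to 16. At day 6 against day 3 in OCI-Ly7 the chaperone count of 0 became 4 with either scaling. The network count of 0 became 7 with an equal sum and 6 with median-ratio scaling. Those 6 were 2 higher and 4 lower, beside 4.52% of all genes lower. At day 3 against day 0 in OCI-Ly7 the network count was 0 as given. Leaving out 1 library changed the network count little in both comparisons. With median-ratio scaling some TMD8 changes turned positive: at day 6 against day 0 HSPA4 to 0.25, HSPD1 to 0.34, PRMT5 to 0.10, HSPA9 to 0.14, DNAJC8 to 0.32 and DNAJA3 to 0.24, and at day 3 against day 0 HSPE1 to 0.081, DNAJA1 to 0.0077, DNAJB1 to 0.0118, DNAJC8 to 0.0678, DNAJA3 to 0.0529, AHSA1 to 0.0221 and PTGES3 to 0.10 (0.0019 with an equal sum); HSPA8 (0.06) and HSPA4 (0.10), not called as given, turned positive as well. The cause was not tested. The replicate numbers share no stated source, and deviations of same-numbered libraries correlated at -0.147 to 0.133, so the block is no paired design. Where leaving out a library left a group with 1, that library was taken to vary as the other groups do. With 2 libraries per group and unknown depth, small changes cannot be resolved.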
